A study of Mus musculus with 4 samples.

Results

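B cells carry surface proteins that tune the antigen receptor or mark a subset, and 10 such genes were followed here: the inhibitory receptors Cd22, Cd72, Fcgr2b, Siglecg and Cd5, the complement receptor Cr2, the tetraspanins Cd9 and Cd37, the lipid-presenting Cd1d1 and Ms4a1, which encodes CD20. They were chosen by name, and every gene probe whose accession is a RefSeq transcript of 1 of these symbols was taken, which gave 15 probes of 39429 on the array. All 10 genes were among the 20651 features tested, and all 15 probes were well above background on all 4 arrays.

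The cells were splenic B cells left after removal of CD43-bearing cells, from Aff3+/- mice (2 samples) or Aff3-/- mice (2 samples). Both genotypes were cultured in the same way for 3 days with LPS at 10 ug/mL, which activates B cells through TLR4, and IL-4 at 10 ng/mL. The controls are heterozygous and so lack 1 functional Aff3 copy; the labels give no age and do not state that the replicates are different animals, so p-values here reflect the spread of these samples, which may be technical. Aff3, of the AF4/FMR2 family, encodes a nuclear factor linked to transcription, and the design asks what its loss alters in activated B cells. B-1 cells, unlike most resting splenic B cells, carry CD43, so the purification acts against them.

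Signalling from the B cell receptor is set by coreceptors around it. CD21, the product of Cr2, joins CD81 in a coreceptor complex and lowers the threshold for activation by antigen coated with complement. CD22, CD72, FcγRIIB, Siglec-G and CD5 restrain it, mostly through tyrosine motifs in their tails that recruit phosphatases. CD21, CD1d and CD9 are high on marginal zone B cells, CD5 and CD9 are found on B-1 cells, and CD20 and CD37 are carried by most mature B cells.

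Promoter sequences from RefSeq (build GRCm38.p6) were matched by symbol for 8 of the 10 genes, all but Cd1d1 and Ms4a1. The 250 bases before the annotated start are printed for Cr2, Fcgr2b and Siglecg, 3 genes whose differences lay among the most negative of the 10, and for Cd9, the one gene whose difference was positive. Capitals mark matches, on either strand, to any of 8 motifs: GAGGAA (an ETS core with the flank of PU.1), the octamer ATGCAAAT, the E-box CANNTG, CCCNNGGG (EBF core), GAANNGAAA (core of the ETS-IRF composite), TTCNNNGAA (STAT element), GGGANTTTC (NF-kB core) and TATAAA. Matches may overlap.
Cr2, chr1:195176720-195176969, minus strand: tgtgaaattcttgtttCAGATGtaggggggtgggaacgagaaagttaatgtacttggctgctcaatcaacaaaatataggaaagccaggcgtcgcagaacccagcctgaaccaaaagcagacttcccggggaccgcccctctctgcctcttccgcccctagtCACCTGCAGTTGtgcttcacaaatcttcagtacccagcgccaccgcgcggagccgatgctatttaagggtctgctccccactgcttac
Fcgr2b, chr1:170976072-170976321, minus strand: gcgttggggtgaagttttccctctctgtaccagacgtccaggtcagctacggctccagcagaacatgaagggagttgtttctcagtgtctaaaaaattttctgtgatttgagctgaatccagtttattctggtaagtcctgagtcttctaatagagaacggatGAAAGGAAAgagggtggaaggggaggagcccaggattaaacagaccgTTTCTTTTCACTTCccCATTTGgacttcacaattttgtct
Siglecg, chr7:43407989-43408238, plus strand: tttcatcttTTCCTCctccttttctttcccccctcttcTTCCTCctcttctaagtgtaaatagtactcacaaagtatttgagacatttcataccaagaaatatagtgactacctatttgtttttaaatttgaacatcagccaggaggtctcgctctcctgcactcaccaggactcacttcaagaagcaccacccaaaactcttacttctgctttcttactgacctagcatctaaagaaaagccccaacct
Cd9, chr6:125494761-125495010, minus strand: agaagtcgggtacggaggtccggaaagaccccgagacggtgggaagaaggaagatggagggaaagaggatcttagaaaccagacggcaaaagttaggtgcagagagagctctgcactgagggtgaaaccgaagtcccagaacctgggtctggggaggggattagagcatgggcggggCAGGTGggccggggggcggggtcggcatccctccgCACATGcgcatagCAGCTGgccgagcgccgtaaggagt

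The Cr2 window held 3 E-box matches, as did that of Cd9. The Fcgr2b window held 1 E-box match and 3 matches to the ETS-IRF core, and the Siglecg window 2 matches to the ETS core. E-box letters were found in 7 of the 8 windows and in 66.0% of 27025 gene promoters of the same length. The ETS core was found in 4 of 8 (Cd72, Siglecg, Cd5 and Cd37) against 23.1%, the EBF core in Cd22 alone against 11.7%, and the ETS-IRF core in Fcgr2b alone against 6.34%. The octamer (1.61% of promoters), STAT (7.18%), NF-kB (0.977%) and TATA (13.0%) letters were in none of the 8 windows. These are letter matches in a short window, not measured binding.

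On each array 24970 to 25895 probes exceeded background and no gene spot was saturated. The precision is limited by having 2 arrays per genotype. No probe could be named as Aff3 through its accession, so the genotype labels were not checked by the Aff3 transcript. The 8 B cell markers looked for, Cd79a, Cd79b, Pax5, Ebf1, Blk, Fcrla and Cd74 among them, were above background on all arrays. The 4 arrays did not behave alike for these genes, and the results below rest on that: Aff3-/- replicate 2 gave the lowest value of all 10 genes, where 35.5% of all features were lowest on that array. All 10 genes also read lower on replicate 2 than on replicate 1 in each genotype, as did 39.8% of all features. The median step from replicate 1 to replicate 2 was -0.18 in Aff3+/- and -0.32 in Aff3-/- cells for the 10 genes, against -0.0015 and -0.028 over all features (log2). Aff3+/- replicate 1 gave the highest value for 6 of the 10, a count whose share over all features was not determined.

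Levels are log2 of the processed signal relative to the 75th percentile of the same array, differences are Aff3-/- minus Aff3+/- on that scale, and the value after ± is a standard error of the difference unless named as SD. None of the 10 genes passed the adjusted threshold of 0.05 (limma with Benjamini-Hochberg adjustment, adjusted p = 1.00 for each), and 0% of all features did. None reached an unadjusted p under 0.05 either, a level reached by 2.04% of all features (422), of which 1.18% of features were lower and 0.867% higher. Of the 10, 9 were lower in Aff3-/- cells and 1 higher, and the median difference was -0.15, against -0.011 over all features, 54.3% of which were lower. With each array scaled to its median, or after quantile normalization, Cd37 turned to slightly above 0 and 8 of 10 were lower. The share of all features that was lower moved to 42.8% with the array median and to 81.3% in the authors' deposited log2 values, where the median over all features was -0.073. Both Aff3-/- arrays lay below both Aff3+/- arrays for 2 of the 10 (Fcgr2b and Siglecg), where 11.2% of all features did so, and for 0 of 10 in the other direction (8.45% of features).

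**Figure D1:**
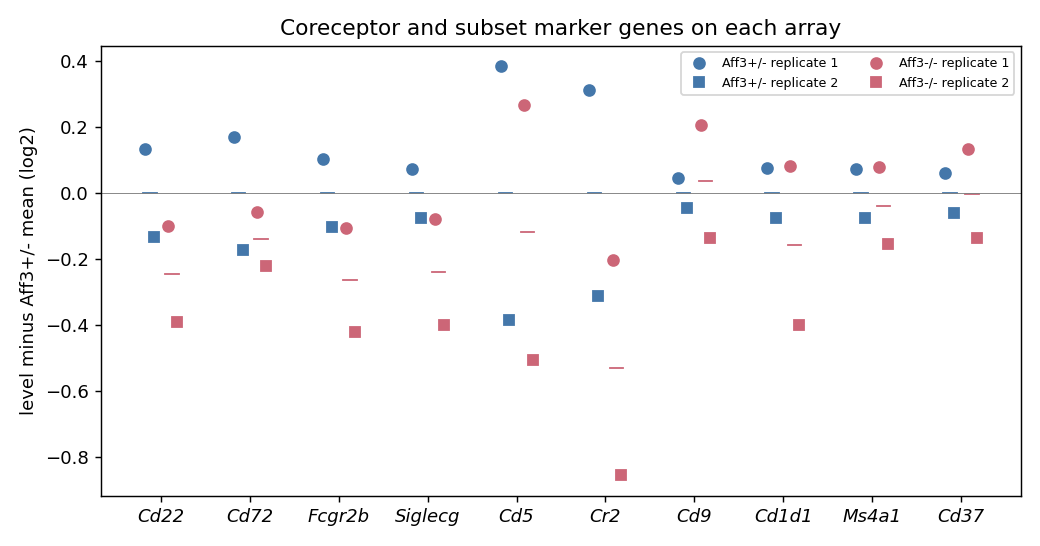
Level of each gene on each of the 4 arrays, in log2 units relative to the mean of its 2 Aff3+/- arrays (short lines are genotype means, blue Aff3+/-, red Aff3-/-; circles replicate 1, squares replicate 2). The red square, Aff3-/- replicate 2, is the lowest point for all 10 genes, and the genotypes separate only narrowly for Fcgr2b and Siglecg.

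Cr2 showed the most negative difference of the 10. In the mouse this gene makes both CD21 and CD35 by splicing, and the files do not say which form a probe reads. Its brighter probe read 1.34 and 0.71 on the Aff3+/- arrays and 0.82 and 0.17 on the Aff3-/- arrays (replicates 1 and 2). The genotypes overlapped, because Aff3-/- replicate 1 lay above Aff3+/- replicate 2. The means were 1.03 ± 0.44 (SD, n = 2) and 0.50 ± 0.46 (SD, n = 2), so the spread within each genotype was close to the difference of -0.53 ± 0.32. The Aff3-/- level was 0.693-fold the Aff3+/- level, 30.7% lower, and the 95% interval of the difference ran from -1.37 to 0.31. Its second, dimmer probe gave -0.45 ± 0.37, with -1.04 and -1.77 in Aff3+/- cells and -1.45 and -2.26 in Aff3-/- cells. The order of the 4 arrays was the same for both probes. Cr2 lay at the 1.40th percentile of all differences, counted from the most negative. It moved to -0.20 without Aff3-/- replicate 2 and to -0.22 without Aff3+/- replicate 1, and to -0.84 without Aff3+/- replicate 2 and -0.86 without Aff3-/- replicate 1.

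Follicular dendritic cells also express Cr2. Of 10 follicular dendritic and stromal markers 9 could be named on the array, of which Cxcl13, Clu, Vcam1, Col1a1 and Col3a1 were not well above background on any array, Pdpn was on 1, and Mfge8, Cdh5 and Col1a2 were on all. The differences of these 3 were -0.053 ± 0.16 for Mfge8, -0.61 ± 0.25 for the endothelial gene Cdh5, lower without overlap, and 0.089 ± 0.12 for Col1a2. The summed signal of the list, in multiples of each array's 75th percentile, was 3.26 to 3.95 in Aff3+/- and 3.18 to 3.74 in Aff3-/- cells. Nearly all of that sum is Mfge8. Of the 8 B cell markers 7 were lower, with a median difference of -0.14, close to the median of the 10 genes, and their summed signal was 330.0 to 343.6 in Aff3+/- and 311.3 to 356.3 in Aff3-/- cells. The part of either list in the Cr2 values was not tested. In these bulk samples, fewer cells of a type and less RNA per cell cannot be told apart.

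The 5 genes whose centred values over the 4 arrays lay nearest to those of Cr2 were Spns2, Gsn, Emid1, Diras2 and Mgst1, with Euclidean distances of 0.05 to 0.10 (log2). Spns2, a sphingosine-1-phosphate transporter, differed by -0.55 ± 0.34 and Gsn, the actin-severing protein gelsolin, by -0.53 ± 0.35. Emid1 differed by -0.46 ± 0.29, the small GTPase gene Diras2 by -0.55 ± 0.36 and the glutathione transferase gene Mgst1 by -0.57 ± 0.36. With normexp background correction the dim genes Diras2 and Spns2 shrank to -0.12 and -0.26. Gsn, Emid1 and Mgst1 then gave -0.50, -0.36 and -0.48, and Cr2 gave -0.48. Each had its lowest value on Aff3-/- replicate 2. The 5 were picked for likeness to Cr2, so this shared lowest array and the similar differences follow from that choice. With 4 arrays, such likeness describes these arrays only.

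Fcgr2b encodes the inhibitory IgG receptor, the only Fcγ receptor that B cells normally carry. Its probe is printed in 10 spots on every array, which gives the spread over spots within an array. Measurement error between arrays is not part of that spread. The 10 spots ran from 9616 to 11194 intensity units on Aff3+/- replicate 1 and from 9094 to 10016 on Aff3+/- replicate 2. On the Aff3-/- arrays they ran from 8739 to 9923 and from 7009 to 7669. Every spot of Aff3-/- replicate 2 was thus dimmer than any spot of the other arrays. The SD over spots was 0.047 to 0.069 (log2). After scaling, the Aff3+/- arrays stood at 3.042 and 2.834 and the Aff3-/- arrays at 2.833 and 2.517. The lower Aff3+/- array and the higher Aff3-/- array were only 0.0017 apart, far less than the SD over spots, so the lack of overlap is at the limit of the measurement. The difference was -0.26 ± 0.17 (95% interval -0.70 to 0.17), a level 16.7% lower in Aff3-/- cells. Leaving out Aff3-/- replicate 2 gave -0.11 and leaving out Aff3-/- replicate 1 gave -0.42.

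Cd22 and Siglecg encode the sialic acid-binding lectins of B cells, which dampen receptor signalling when bound to sialylated ligands on the same or another cell. Cd22 read 2.93 and 2.66 in Aff3+/- and 2.70 and 2.41 in Aff3-/- cells, a difference of -0.25 ± 0.17 (15.7% lower). The genotypes overlapped by 0.033, since Aff3-/- replicate 1 lay just above Aff3+/- replicate 2. Siglecg stood at 1.251 and 1.103 in Aff3+/- cells and at 1.098 and 0.778 in Aff3-/- cells, a difference of -0.24 ± 0.16 (15.3% lower). The genotypes did not overlap, with a gap of 0.0045, but for the second Siglecg probe, at -1.18 and -1.30 against -1.25 and -1.70, they did. That probe gave the same difference, -0.24 ± 0.19. The 95% interval was -0.69 to 0.20 for Cd22 and -0.66 to 0.18 for Siglecg. Without Aff3-/- replicate 2 the differences were -0.10 for Cd22 and -0.079 for Siglecg, and without Aff3-/- replicate 1 they were -0.39 and -0.40.

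Cd72, a C-type lectin of B cells whose ligand is the semaphorin CD100, had 2 probes. Its brighter probe read 5.09 and 4.75 in Aff3+/- and 4.87 and 4.70 in Aff3-/- cells. The Aff3+/- arrays enclosed Aff3-/- replicate 1. The difference was -0.14 ± 0.17 (95% interval -0.58 to 0.30) and -0.11 ± 0.18 for the other probe. Without Aff3+/- replicate 1 it turned to 0.032.

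Cd5, a scavenger-receptor family protein of T cells and B-1 cells that restrains antigen receptor signals, had a wider spread inside each genotype than the step from one genotype to the other. It stood at -0.97 and -1.74 in Aff3+/- and at -1.09 and -1.86 in Aff3-/- cells. Both replicate 1 arrays were high and both replicate 2 arrays low. The difference was -0.12 ± 0.38, with SDs of 0.54 (n = 2) and 0.55 (n = 2) within the genotypes. It turned to 0.27 without Aff3+/- replicate 1 and to 0.27 without Aff3-/- replicate 2. Since T cells carry CD5, T cell markers were set beside it. T cells also carry CD43, so the purification acts against them too. Of 9 such markers 8 were above background on all arrays and Cd3g on none. Their summed signal was 12.5 to 14.4 in Aff3+/- and 11.0 to 12.6 in Aff3-/- cells, with 5 of the 8 lower and 3 higher. Cd3e, Cd4, Lck, Lat and Cd3d lay between -0.11 and 0.067. Cd2 was -0.48 ± 0.27, while Cd28 at 0.33 ± 0.13 and Cd8a at 1.01 ± 0.43 were higher without overlap. Cd8a was dim, at -7.30 and -6.19 in Aff3+/- and -6.05 and -5.42 in Aff3-/- cells. Its 2 Aff3+/- arrays were 1.11 apart, more than the difference between genotypes. The part of the T cell markers in the Cd5 values was not tested.

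**Figure D2:**
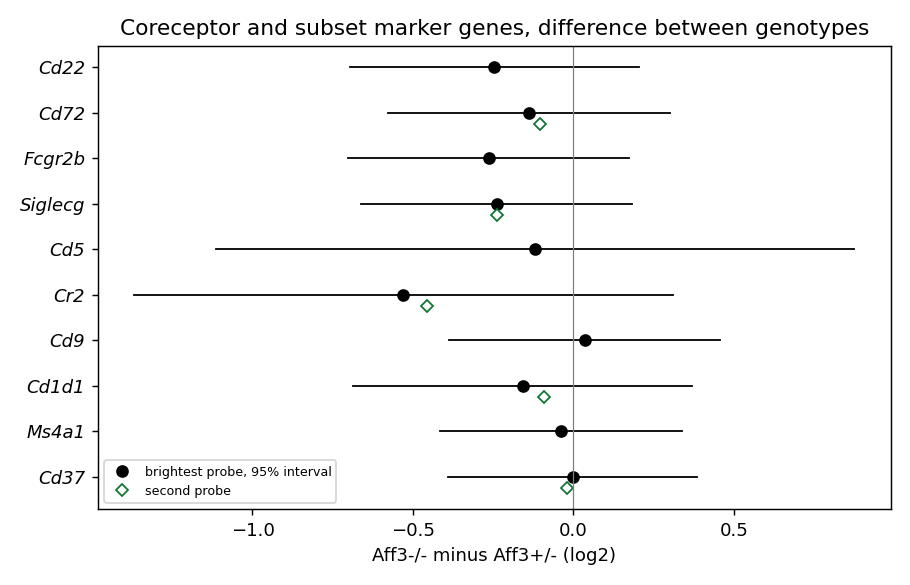
Difference between genotypes for each gene (log2, Aff3-/- minus Aff3+/-; filled circles the brightest probe with its 95% interval from limma, open diamonds the second probe of the 5 genes that have one). Every interval includes 0, and the second probes lie within 0.1 of the first.

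Among the subset markers, Cd1d1, which presents lipid antigens to NKT cells, stood at 0.31 and 0.15 in Aff3+/- and at 0.31 and -0.17 in Aff3-/- cells. Only Aff3-/- replicate 2 stood apart. The difference was -0.16 ± 0.20 (95% interval -0.69 to 0.37), -0.091 ± 0.23 for the second probe, and 0.083 without that array.

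Cd9, a tetraspanin of marginal zone and B-1 cells and of antibody-secreting cells, was the one gene of the 10 with a positive difference. It read -0.84 and -0.93 in Aff3+/- and -0.68 and -1.02 in Aff3-/- cells. The Aff3-/- arrays enclosed those of Aff3+/-. The difference of 0.036 ± 0.16 (95% interval -0.39 to 0.46) turned to -0.13 without Aff3-/- replicate 1 and to -0.0088 without Aff3+/- replicate 2. Platelets are rich in CD9. Of 6 megakaryocyte and platelet markers Gp1ba, Gp9 and Ppbp were not well above background on any array, and the summed signal was 3.96 to 4.92 in Aff3+/- and 4.80 to 6.17 in Aff3-/- cells. Nearly all of that sum is the integrin gene Itgb3, which was 0.30 ± 0.19 with overlapping genotypes. Pf4, which encodes a platelet chemokine, was well above background on both Aff3-/- arrays and on neither Aff3+/- array. It thus passed the filter through the Aff3-/- arrays alone. Its signal was very dim, at -9.80 and -8.30 in Aff3+/- and -6.30 and -7.49 in Aff3-/- cells. The part of these markers in the Cd9 values was not tested.

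The genes of most mature B cells lay close to 0. Ms4a1 read 6.28 and 6.13 in Aff3+/- and 6.28 and 6.05 in Aff3-/- cells, a difference of -0.038 ± 0.14 (95% interval -0.41 to 0.34). Cd37, a tetraspanin restricted mainly to lymphocytes, read 4.65 and 4.53 in Aff3+/- and 4.72 and 4.45 in Aff3-/- cells, a difference of -0.0021 ± 0.15 (95% interval -0.39 to 0.38). Its second probe gave -0.020 ± 0.18. The direction of both turned with the array left out, to 0.080 and 0.13 without Aff3-/- replicate 2 and to -0.16 and -0.14 without Aff3-/- replicate 1.

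**Figure D3:**
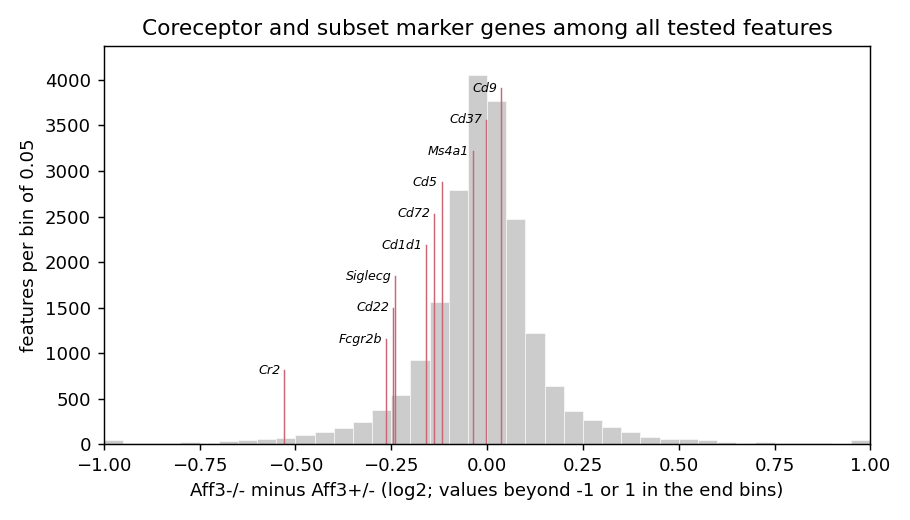
Number of features in each bin of the log2 difference (Aff3-/- minus Aff3+/-), over 20651 features, with a red line at each of the 10 genes (line heights only separate the names). Cr2 lies at -0.53 in the lower tail, and the other 9 lie between -0.26 and 0.036.

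Other genes of these pathways were counted in 8 lists, and no gene of any list passed the adjusted threshold. The phosphatases and kinases that act under inhibitory receptors gave 10 lower and 5 higher of 15, with a median of -0.097. Lyn, the kinase that phosphorylates the inhibitory tails, was -0.29 ± 0.11, at -1.16 and -1.15 in Aff3+/- and -1.47 and -1.43 in Aff3-/- cells. The SD within a genotype was 0.0072 and 0.031 for Lyn, and its genotypes did not overlap. Dok2, an adaptor of the same branch, was 0.23 ± 0.12, higher without overlap. Ptpn6 (SHP-1) at -0.0035 ± 0.11 and Inpp5d (SHIP-1) at 0.017 ± 0.11, the phosphatases these receptors recruit, lay close to 0; both were named after their values were seen.

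In the list of the coreceptor complex and B cell receptor 9 of 11 genes were lower (median -0.11). Cd81, a partner of CD21, was 0.11 ± 0.15 and was also named after its value was seen. The receptor kinases Syk at -0.28 ± 0.20 and Blk at -0.29 ± 0.31 had the smallest unadjusted p of the list. Blk turned to 0.011 without Aff3+/- replicate 1 and to 0.035 without Aff3-/- replicate 2.

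Other inhibitory receptors were lower in 12 of 14 cases (median -0.13). The collagen receptor gene Lair1 had the smallest unadjusted p of all listed genes (0.010, limma), with -3.54 and -3.44 in Aff3+/- and -3.96 and -4.21 in Aff3-/- cells. The genotypes did not overlap, the difference was -0.59 ± 0.14, and it stayed between -0.72 and -0.47 whichever array was left out. Its adjusted p was 1.00. Pirb, an inhibitory receptor for MHC class I, was -0.29 ± 0.23.

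Of 9 siglec, sialic acid and ligand genes 7 were lower (median -0.082). Cmah, which makes the N-glycolyl sialic acid preferred by mouse CD22, was -0.23 ± 0.12, without overlap, and -0.33 for its second probe. Siglech was -0.11 ± 0.12, lower without overlap. This gene marks plasmacytoid dendritic cells, and it was well above background on all arrays while the dendritic cell markers Itgax, Xcr1 and Clec9a were above it on none. The dendritic cell markers Flt3 at -0.025 ± 0.21 and Zbtb46 at 0.52 ± 0.16, higher without overlap, were also above background on all arrays. The summed signal of this list was 93.3 to 103.1 in Aff3+/- and 89.5 to 94.0 in Aff3-/- cells. Most of that sum is Siglech itself, at 6.46 and 6.34 in Aff3+/- and 6.29 and 6.28 in Aff3-/- cells. The sum is therefore no separate measure to set beside Siglech. The part of dendritic cells in the Siglech values was not tested.

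The tetraspanin and MS4A list was split, with 10 lower and 8 higher of 18 (median -0.027). The tetraspanin gene Cd82 stood at 5.66 and 5.67 in Aff3+/- and at 5.99 and 5.84 in Aff3-/- cells, higher without overlap. The difference was 0.25 ± 0.12, and its other probes gave 0.30 and 0.30. Ms4a4b, a relative of CD20 known mainly from T cells, was -0.41 ± 0.17, lower without overlap.

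Fc and complement receptor genes were lower in 8 of 10 cases (median -0.20). Fcgrt, which encodes the neonatal Fc receptor, was -0.62 ± 0.26 and the signalling chain Fcer1g -0.24 ± 0.16. Fcgrt was dim, at -4.49 and -5.06 in Aff3+/- and -5.60 and -5.19 in Aff3-/- cells, lower without overlap. Its difference shrank to -0.27 with normexp background correction and ran from -0.91 to -0.33 with 1 array left out. The low-affinity activating receptor genes Fcgr3 at -0.23 ± 0.17 and Fcgr4 at -0.25 ± 0.22 were above background on all arrays, and Fcer2a, which encodes the IgE receptor CD23 of follicular B cells, was 0.18 ± 0.19. These 3 were named after their values were seen. The high-affinity receptor gene Fcgr1, a macrophage marker, was not well above background on any array, nor were Lyz2 and Mertk. Of 7 macrophage and monocyte markers 3 were tested and were all lower (median -0.24), each with overlapping genotypes. The summed signal of the list was 7.45 to 8.65 in Aff3+/- and 7.18 to 7.88 in Aff3-/- cells. Nearly all of that sum is Itgam, which was -0.088 ± 0.13. The part of the macrophage and monocyte markers in the Fc receptor values was not tested.

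In the list of marginal zone, B-1, follicular and transitional genes 16 of 19 were lower (median -0.12). Cd24a, high on transitional B cells, was -0.32 ± 0.12 without overlap, and Dtx1, a Notch target of marginal zone cells, was -0.24 ± 0.17. The 3 higher genes were S1pr3 at 0.37 ± 0.31, Fcer2a at 0.18 ± 0.19 and Vpreb3 at 0.097 ± 0.27, each with overlapping genotypes. Mzb1 at -0.021 ± 0.11 and Cd93 at -0.10 ± 0.20 overlapped too. These genes were named after their values were seen. CD1d presentation genes gave 7 lower of 9 (median -0.032), with the lipid transfer genes Gm2a at -0.26 ± 0.17 and Psap at -0.13 ± 0.20. Psap turned to 0.026 without Aff3+/- replicate 1 and to 0.068 without Aff3-/- replicate 2. All 6 plasma cell markers were higher (median 0.11), but only 1 of them, Jchain at 0.33 ± 0.17, without overlap. Prdm1 at 0.044 ± 0.14 and Sdc1 at 0.035 ± 0.40 lay close to 0. The summed signal was 46.0 to 51.5 in Aff3+/- and 53.3 to 56.1 in Aff3-/- cells. Most of that sum is Xbp1, which was 0.12 ± 0.13 with overlapping genotypes. The NK cell markers Ncr1, Klrb1c, Klrk1 and Eomes, the neutrophil markers S100a8, S100a9 and Mpo and the erythroid marker Alas2 were not well above background on any array. Gzma and Prf1 of the NK cell list, Camp and Elane of the neutrophil list and Hba-a1 of the erythroid list were above it on all 4 arrays and Klf1 on 3. The part of the plasma cell markers in the values of the 10 genes was not tested.

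**Figure D4:**
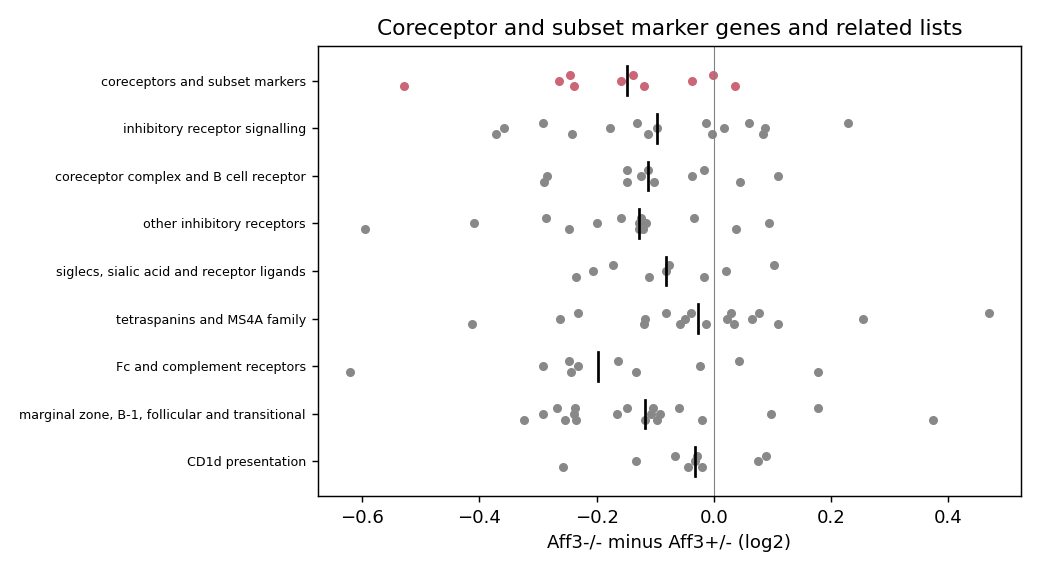
Log2 difference (Aff3-/- minus Aff3+/-) of each tested gene in the 10 coreceptor and subset marker genes (red) and in 8 related lists (grey), with black lines at the medians. The medians run from -0.20 for Fc and complement receptors to -0.027 for the tetraspanin and MS4A list. Some genes are in more than 1 list.

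How far the 10 genes depend on single arrays is shown by leaving each out. Omitting Aff3+/- replicate 2 gave a median over the 10 of -0.31, and omitting Aff3-/- replicate 1 gave -0.40, with 10 of 10 lower each time. Of all features 52.3% and 54.4% were lower. Without Aff3-/- replicate 1 the Aff3-/- value is replicate 2 alone, the lowest array for all 10 genes, so that count was fixed beforehand. Omitting Aff3+/- replicate 1 gave -0.025 and omitting Aff3-/- replicate 2 gave 0.012, with 5 of 10 lower in either case. Of all features 54.6% and 51.3% were lower. The median over all features stayed between -0.022 and -0.0052 in these fits. Cr2, Cd22, Fcgr2b and Siglecg were below 0 in all 4 of them. For Fcgr2b and Siglecg this was fixed beforehand, since their genotypes did not overlap. The other 6 changed direction in at least 1. The share of all features that kept their direction in all 4 fits was not determined.

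**Figure D5:**
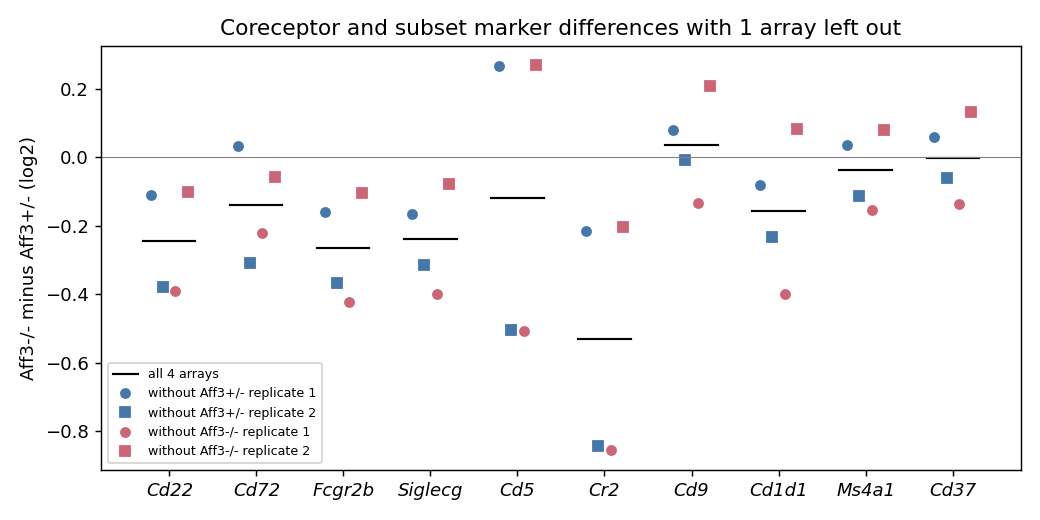
Log2 difference (Aff3-/- minus Aff3+/-) of each gene with all 4 arrays (black line) and with 1 array left out (points, coloured by the genotype of the array left out). Without Aff3+/- replicate 1 or Aff3-/- replicate 2 the points lie nearer to or above 0, and Cr2 ranges from -0.86 to -0.20.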

How the data were processed

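Each of 4 Agilent arrays, all on 1 slide, took the Cy3-labelled RNA of 1 sample. Per the file headers, Agilent Feature Extraction 10.7.1.1 read the spots; the deposited processed and median signals are intensity values with background subtracted only in the former, and not scaled between arrays. A deposited table holds log2 values centred on each probe's median over the arrays. Its scale and direction were found against the scanner values (correlation 0.996 to 0.998 per array), its scaling between arrays stays unknown, and its column medians were 0.13 and -0.03 for Aff3+/- replicates 1 and 2 and -0.04 and 0.02 for Aff3-/- replicates 1 and 2.

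Control and outlier spots were left out. Log2 processed signals were set against each array's 75th percentile, and spots of a probe averaged. Probes well above background on both arrays of a genotype were kept (25136), each gene by its probe of highest mean signal, named by accession through a RefSeq table of another build than the array's. Accessions without a symbol stayed features of their own. The genotypes were compared with limma 3.58.1 in R 4.3.3 (eBayes without trend, two-sided, Benjamini-Hochberg over all 20651 features), tested on simulated data. Genes named besides the 10 are the 2 of smallest unadjusted p in each related list and the 5 nearest to Cr2, with exceptions stated; markers of other cell types were named for their detection or values, outside this rule and after these were seen. The genes and lists were chosen with earlier results of these data known. The files hold median rather than mean spot signals, so normexp used those. Alternatives covered scaling, background, the deposited values, filter, probe rule, variance model, the replicate number and leaving out each array; those for the genes near Cr2 were chosen after seeing the data. Some listed genes are counted but not reported by name here.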

Additional observations from a re-analysis of the deposited data

How the results depend on the processing

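No feature, and so none of the 10 genes, passed the adjusted threshold with limma under any of the 12 alternatives, in which 234 to 1457 features had an unadjusted p under 0.05. The count of the 10 genes lower without overlap (2) was 0 with quantile normalization, 1 with normexp and 1 with probes averaged per gene, where 9.68%, 10.3% and 11.7% of all features were lower without overlap. It was 2 to 10 with 1 array left out, where 25.2% to 40.3% of all features were. The 10, found without Aff3-/- replicate 1, was fixed beforehand, since Aff3-/- replicate 2 was the lowest array for all 10 genes. Cd37 turned to 0.0017 with quantile normalization and 0.026 with the array median. With 1 array left out the range was -0.31 to 0.032 for Cd72, -0.51 to 0.27 for Cd5, -0.13 to 0.21 for Cd9, -0.40 to 0.083 for Cd1d1, -0.16 to 0.080 for Ms4a1, -0.14 to 0.13 for Cd37, -0.62 to 0.035 for Blk and -0.34 to 0.068 for Psap. Values that changed direction within these ranges were 0.27 (Cd5), 0.036 (Ms4a1), 0.058 (Cd37), -0.0088 (Cd9), 0.011 (Blk) and 0.026 (Psap). Of 373 values for 31 genes 357 kept their direction. The deposited table holds 8 of the 10 genes, all but Cd9 and Cd37.

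The replicate numbers are not stated to pair samples. Deviations from the group means correlated between genotypes for the same number (r = 0.556 across features, which are not independent). With the replicate number as a block the standard error fell for all 10 genes, Cr2 (-0.53 ± 0.074), Fcgr2b (-0.26 ± 0.079) and Cd22 (-0.25 ± 0.074) had an unadjusted p of 0.0032, 0.035 and 0.035 (limma), a level under 0.05 that 7.06% of all features reached with the block and 2.04% without, and their adjusted p were 0.62, 0.67 and 0.68.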
